A study of Mus musculus with 8 samples.

Results

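The 35 genes described here are glycolytic and hypoxia-responsive genes listed by symbol, by a rule that uses no measured value. The list was chosen with earlier results of these data known. All 35 were found among the 15538 genes of the expression table. They comprise 17 enzymes from hexokinase to lactate dehydrogenase, 5 genes for glucose transporters, lactate carriers and the pyruvate dehydrogenase kinase Pdk1, 3 genes for HIF-1α and its hydroxylases, and 10 hypoxia targets outside metabolism.

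Glycolysis breaks glucose down to pyruvate in the cytosol, with a preparatory phase that spends ATP and a payoff phase that makes it. Lactate dehydrogenase and the monocarboxylate carriers handle the lactate made from pyruvate. The same route is a classical output of the hypoxia response. Prolyl hydroxylases (EGLN proteins) mark the HIF-1α subunit for destruction while oxygen is present, and in low oxygen HIF-1 binds short DNA elements and raises glycolytic enzymes together with genes of blood vessel growth, mitophagy, pH control and collagen modification. Neural stem cells are known for a strongly glycolytic metabolism that declines as they differentiate.

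Gene expression was measured by bulk polyA RNA sequencing of primary neurospheres, the spheres that mouse embryonic neural stem cells form in culture. As labelled, 4 libraries were homozygous null for the PHD finger gene Phf23 (Phf23-/-) and 4 were wild type (WT, Phf23+/+). The study asked how loss of Phf23 affects the differentiation of embryonic neural stem cells. The labels give neither the allele nor the strain, embryonic age, number of embryos or number of cultures, so that p-values reflect only how far these libraries differ among themselves, and that spread may be technical.

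Values are normalised reads, that is, gene reads divided by a size factor of each library. Depth was 18099114 to 19462516 reads in libraries labelled Phf23-/- and 15647304 to 18241215 reads in libraries labelled WT. A gene was called higher or lower at a false discovery rate (FDR) under 0.05 in limma-trend across all genes. A log2 value is the log2 fold change of libraries labelled Phf23-/- over libraries labelled WT, ± SE, and a mean is given ± SD with n = 4 libraries.

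The targeted gene went against the labels. Phf23 had 1607, 1528, 1429 and 1361 normalised reads in libraries 1 to 4 labelled Phf23-/-, against 720.4, 766, 788 and 919 in libraries 1 to 4 labelled WT (log2 0.89 ± 0.11, FDR = 0.000581). Every library labelled Phf23-/- had more Phf23 reads than every library labelled WT. The labels do not give the deleted part of the gene, and a gene total does not show which exons its reads came from. All directions are therefore between libraries as labelled.

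Libraries also differed in how reads varied with transcript length. The length slope, the change in log2 reads per doubling of transcript length relative to the gene's mean over libraries, was -0.23, -0.30, -0.087 and 0.041 in libraries 1 to 4 labelled Phf23-/- and 0.25, 0.19, 0.076 and 0.062 in libraries 1 to 4 labelled WT. A negative slope means relatively more reads on short transcripts. The groups did not overlap (two-sided exact permutation p = 0.0286, the smallest that 4 against 4 libraries can give), so that slope and genotype label cannot be told apart. Replicates 3 and 4 of each group lay closest to those of the other group. Of the neural stem cell markers, all 8 were detected, with a summed 154530 to 196490 normalised reads in libraries labelled Phf23-/- and 133556 to 143433 in libraries labelled WT. Summed astrocyte markers (4 of 4 detected) were at 2268 to 2532 in libraries labelled Phf23-/- and 3059 to 3732 in those labelled WT. Aldh1l1 carried most of that sum and was called lower, as was Aqp4, while Gfap (1.89-fold, FDR = 0.00165) and S100b (1.74-fold, FDR = 0.00495) were called higher. Oligodendrocyte lineage markers (5 of 5) were at 18533 to 19802 in libraries labelled Phf23-/- and 15307 to 20165 in those labelled WT, and neuron markers (6 of 6) at 718 to 822 in libraries labelled Phf23-/- and 717 to 928 in those labelled WT, with 1 of the 6 called, Rbfox3 (2.87-fold higher, FDR = 0.01004). Of the neural stem cell markers 3 of 8 and of the oligodendrocyte lineage markers 3 of 5 were called higher, and none lower. Markers of cells from vessels and blood were scarce. The 4 of 6 endothelial markers in the table summed to 67.4 to 89.0 reads in libraries labelled Phf23-/- and 36.0 to 73.9 in libraries labelled WT, and 1 of the 4 was called higher. P2ry12, the 1 of 6 microglial markers in the table, had 14.4 to 17.9 in libraries labelled Phf23-/- and 15.7 to 48.4 in those labelled WT. The 4 of 5 pericyte markers summed to 75.1 to 100.04 in libraries labelled Phf23-/- and 57.9 to 99.8 in those labelled WT, and Alas2, the 1 of 6 red blood cell markers in the table, reached at most 2.79 in libraries labelled Phf23-/- and 4.80 in those labelled WT. The other markers of these lists were not analysed here, and the part of these cell types in the results below was not tested. In bulk RNA, fewer cells of a type and less RNA per cell cannot be told apart.

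HIF binds a core that reads ACGTG or GCGTG, and the windows around the start sites were searched for it because enzymes are set against other hypoxia targets below. Of the 35 genes, 32 had at least 1 RefSeq promoter window on GRCm38.p6, from 250 bases before to 50 bases after the start. ACGTG on either strand was found in 25 of their 45 windows (55.6%), against 6447 of 32851 windows of all genes (19.6%). Windows of 1 gene can overlap, so that a site can count more than once, as in Aldoa. By gene, 23 of the 32 and 5886 of 27025 of all genes with a window held ACGTG. The genes were listed as glycolytic or hypoxia-responsive in advance, so that this excess is no result of the libraries. GCGTG was found in 57.8% of member windows and 32.4% of all windows. Member windows were richer in GC, with a median of 62.3% against 52.7%. The palindrome CACGTG, which holds ACGTG on both strands, was in 11.1% of member windows and 7.15% of all windows.

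The 250 bases before the start are given for 3 genes called higher and 2 that were not called. Pgk1 lies at chrX:106186850-106187099 (+ strand), Ldha at chr7:46845554-46845803 (+ strand, the upstream of its 2 windows), Ldhb at chr6:142507958-142508207 (- strand), Egln3 at chr12:54203875-54204124 (- strand) and P4ha1 at chr10:59323046-59323295 (+ strand). Each runs 5′ to 3′ along its gene's strand, and capitals mark ACGTG or GCGTG on either strand, so that the reverse strand reads CACGT or CACGC.
Pgk1: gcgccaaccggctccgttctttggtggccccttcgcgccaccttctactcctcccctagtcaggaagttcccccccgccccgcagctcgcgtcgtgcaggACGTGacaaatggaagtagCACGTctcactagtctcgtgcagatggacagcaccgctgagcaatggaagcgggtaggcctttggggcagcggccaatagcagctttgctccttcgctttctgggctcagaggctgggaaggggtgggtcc
Egln3: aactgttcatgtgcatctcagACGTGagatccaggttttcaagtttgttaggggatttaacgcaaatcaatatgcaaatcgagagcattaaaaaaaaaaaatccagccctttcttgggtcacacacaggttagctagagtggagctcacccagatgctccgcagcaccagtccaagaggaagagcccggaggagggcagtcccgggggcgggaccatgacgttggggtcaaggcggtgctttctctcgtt
Ldhb: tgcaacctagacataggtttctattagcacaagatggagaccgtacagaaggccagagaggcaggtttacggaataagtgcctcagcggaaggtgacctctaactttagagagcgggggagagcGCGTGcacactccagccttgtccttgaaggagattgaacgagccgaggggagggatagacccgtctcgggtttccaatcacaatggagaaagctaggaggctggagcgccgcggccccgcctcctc
Ldha: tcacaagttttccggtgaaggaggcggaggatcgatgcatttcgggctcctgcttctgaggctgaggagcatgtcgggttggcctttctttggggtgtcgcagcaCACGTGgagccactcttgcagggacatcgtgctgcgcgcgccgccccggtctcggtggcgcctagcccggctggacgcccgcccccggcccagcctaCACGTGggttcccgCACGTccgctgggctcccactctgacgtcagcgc
P4ha1: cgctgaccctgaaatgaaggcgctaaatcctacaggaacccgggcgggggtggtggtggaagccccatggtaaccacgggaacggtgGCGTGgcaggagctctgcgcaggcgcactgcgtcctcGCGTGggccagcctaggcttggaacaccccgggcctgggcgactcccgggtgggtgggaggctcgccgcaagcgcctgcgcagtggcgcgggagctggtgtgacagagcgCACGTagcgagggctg
The Ldha stretch held 5 ACGTG matches counted over both strands, the most of these 5 stretches, and Ldha was not called. The Ldhb stretch held 0 ACGTG and 1 GCGTG, and Ldhb was called higher. Pgk1 held 2 ACGTG and Egln3 held 1 ACGTG, and both were called higher. P4ha1 held 1 ACGTG and 2 GCGTG and was not called. Across the 32 genes with a window, ACGTG was present in at least 1 window of 11 of 15 called higher, 1 of 2 called lower and 11 of 15 not called. It was present for 10 of 17 enzymes and 7 of 8 non-metabolic targets. A match is a description of letters, not of binding.

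Among all 35 genes, 15 were called higher in libraries labelled Phf23-/-, 3 were called lower and 17 were not called. Over all genes tested, 14.8% were called higher and 14.8% lower, 29.6% in all. The median log2 fold change was 0.23 over the 35 genes and 0.00055 over all genes. The enzymes held 11 of the 15 higher calls and no lower call.

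**Figure D1:**
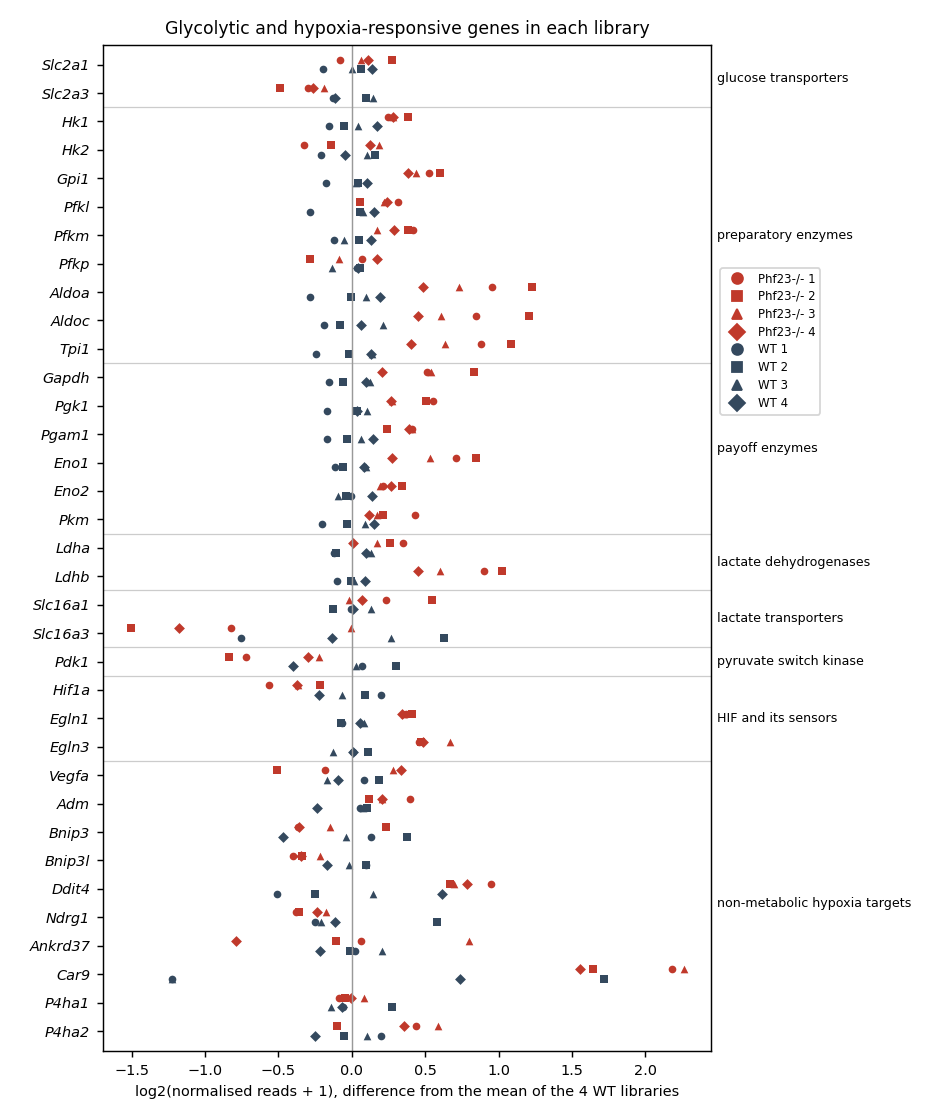
Each symbol is 1 library and each row 1 gene, in pathway order from glucose entry to the hypoxia targets. The x axis is log2(normalised reads + 1) minus the mean of the 4 WT libraries for that gene. Red symbols are libraries labelled Phf23-/-, dark symbols libraries labelled WT. For Aldoa, Tpi1, Eno1 and Ldhb all red symbols lie right of all dark ones, with Phf23-/- 2 farthest right, while for most hypoxia targets at the bottom red and dark symbols mix.

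Glucose entry showed no called gene. Slc2a1 (GLUT1), the main glucose transporter of most cells and of the blood-brain barrier, had 532, 679, 588 and 608 normalised reads in libraries 1 to 4 labelled Phf23-/-, against 491, 587, 564 and 618 in libraries 1 to 4 labelled WT. The groups overlapped and it was not called (log2 0.091 ± 0.12, FDR = 0.586, 95% interval -0.16 to 0.34). Slc2a3 (GLUT3), a high-affinity transporter typical of neurons, had 439, 384, 474 and 451 in libraries 1 to 4 labelled Phf23-/-, against 495, 579.8, 599 and 499.9 in those labelled WT. Every library labelled Phf23-/- was below every library labelled WT, yet the gene missed the threshold (log2 -0.31 ± 0.12, FDR = 0.0577). DESeq2 on the recovered reads called it lower (adjusted p = 0.0334).

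Hexokinase traps glucose in the cell as glucose phosphate. Hk1, the hexokinase that dominates in brain, had 3184, 3497, 3250.0 and 3250.1 normalised reads in libraries 1 to 4 labelled Phf23-/-, against 2409, 2580.3, 2756 and 3014 in libraries 1 to 4 labelled WT. All libraries labelled Phf23-/- exceeded all labelled WT, and Hk1 was called higher (1.23-fold, log2 0.30 ± 0.096, FDR = 0.0353). That call was lost without Phf23-/- 1, 2 or 3 or WT 1, 2 or 3 (log2 0.25 to 0.31, FDR 0.0637 to 0.113). Hk2, the hypoxia-inducible hexokinase, had 232, 264, 331 and 317 in libraries 1 to 4 labelled Phf23-/-, against 251, 324, 313 and 282 in those labelled WT. Libraries 1 and 2 labelled Phf23-/- were low and libraries 3 and 4 labelled Phf23-/- were high, so that the groups overlapped (log2 -0.040 ± 0.14, FDR = 0.862). Of the reads per kb on both hexokinases, Hk1 took a mean 93.7% in libraries labelled Phf23-/- and 92.2% in libraries labelled WT, and these shares overlapped.

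Gpi1, which turns glucose phosphate into fructose phosphate, lies at chr7:34201330-34230336 (GRCm38). It had 17442, 18339, 16398 and 15802 normalised reads in libraries 1 to 4 labelled Phf23-/-, against 10735, 12442, 12352 and 13006 in libraries 1 to 4 labelled WT. The lowest library labelled Phf23-/- stood above the highest library labelled WT, and Gpi1 was called higher (1.40-fold, log2 0.49 ± 0.10, FDR = 0.00733). It was called in each of the 8 fits that left out 1 library.

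Phosphofructokinase commits sugar to glycolysis and is the main control point of the route. Of its 3 isozyme genes, Pfkm was called higher and Pfkl and Pfkp were not called, and the differences between them were not tested. Pfkm, the muscle-type subunit, had 3503, 3418, 2961 and 3201 normalised reads in libraries 1 to 4 labelled Phf23-/-, against 2414, 2717, 2527 and 2873 in libraries 1 to 4 labelled WT. No WT library reached the Phf23-/- range and Pfkm was called higher (1.24-fold, log2 0.31 ± 0.097, FDR = 0.0300), but not without Phf23-/- 1 or 2 or WT 1, 2 or 3 (log2 0.27 to 0.33, FDR 0.0555 to 0.0941). Pfkl, the liver-type subunit, had 1293, 1082, 1212 and 1229.8 in libraries 1 to 4 labelled Phf23-/-, against 855, 1082, 1097 and 1158 in those labelled WT. The groups overlapped through Phf23-/- 2 (log2 0.21 ± 0.11, FDR = 0.190). Pfkp, the platelet-type subunit, had 1431, 1119, 1281 and 1532 in libraries 1 to 4 labelled Phf23-/-, against 1399.6, 1416, 1242 and 1403 in those labelled WT. The groups overlapped (log2 -0.034 ± 0.11, FDR = 0.848), and Pfkp shares 748 exon bases with Pitrm1 on the opposite strand. The strand setting was not given, so that reads of Pfkp may be shared with Pitrm1. Of all phosphofructokinase reads per kb, Pfkm took 63.8, 67.9, 61.9 and 61.4% in libraries 1 to 4 labelled Phf23-/- and 59.7, 59.9, 59.6 and 60.6% in libraries 1 to 4 labelled WT. These shares did not overlap. The Pfkm transcript, at 2879 bases, is shorter than those of Pfkl (3730 bases) and Pfkp (4145 bases). After a trend over transcript length and GC content was subtracted, Pfkm was at log2 0.20, Pfkl at 0.15 and Pfkp at 0.14. The part of the length slope in these shares was not tested.

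Aldolase splits fructose bisphosphate into triose phosphates, and both aldolase genes were called higher. Aldoa, the aldolase of most tissues, lies at chr7:126795234-126800751 and had 18522, 22391, 15879.6 and 13369 normalised reads in libraries 1 to 4 labelled Phf23-/-, against 7864, 9537, 10215 and 10931 in libraries 1 to 4 labelled WT. Phf23-/- 2 was the highest and WT 1 the lowest, with no overlap (1.82-fold, log2 0.85 ± 0.16, FDR = 0.00498). Aldoc, the brain aldolase, had 2270.0, 2912, 1919 and 1722 in libraries 1 to 4 labelled Phf23-/-, against 1104, 1192, 1461 and 1319 in those labelled WT. Again no libraries overlapped between labels (1.74-fold, log2 0.78 ± 0.15, FDR = 0.00637). Their shares overlapped between groups: Aldoa took a mean 93.5% of their reads per kb in libraries labelled Phf23-/- and 93.2% in libraries labelled WT. Tpi1, which interconverts the triose phosphates, had 9538, 11011, 8058 and 6869 in libraries 1 to 4 labelled Phf23-/-, against 4377, 5102, 5693 and 5673 in those labelled WT. It was called higher with no overlap (1.70-fold, log2 0.75 ± 0.14, FDR = 0.00587). All these calls were kept in each of the 8 fits that left out 1 library.

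In the payoff phase, 4 of 6 enzyme genes were called higher and none lower. Gapdh, which oxidises glyceraldehyde phosphate, had 35079.9, 43797, 35654 and 28315 normalised reads in libraries 1 to 4 labelled Phf23-/-, against 22026, 23522, 26822 and 26251 in libraries 1 to 4 labelled WT. It is often taken as a constant reference gene, but here the groups did not overlap (1.45-fold, log2 0.52 ± 0.13, FDR = 0.0150). The Gapdh call was lost without WT 1 or 2 (log2 0.47 to 0.50, FDR 0.0522 to 0.0534). The annotation holds 77 near-identical copies of Gapdh elsewhere, of which 1 was in the table with a mean of 2.19 normalised reads, so that the sharing of reads with copies is uncertain.

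Pgk1, which makes the first ATP of the payoff phase, had 14262, 13762, 11699 and 11664 normalised reads in libraries 1 to 4 labelled Phf23-/-, against 8646, 9917, 10398 and 9931 in libraries 1 to 4 labelled WT. Each library labelled Phf23-/- exceeded each labelled WT and Pgk1 was called higher (1.32-fold, log2 0.40 ± 0.11, FDR = 0.0173), but not without Phf23-/- 1 or WT 1 or 2 (log2 0.34 to 0.41, FDR 0.0512 to 0.0644). Pgam1, which moves the phosphate of phosphoglycerate, had 7944, 7065, 7930.0 and 7827 in libraries 1 to 4 labelled Phf23-/-, against 5309.9, 5836, 6249 and 6596 in those labelled WT. It was also called higher without overlap (1.28-fold, log2 0.36 ± 0.099, FDR = 0.0186), but not without Phf23-/- 1 or 3 or WT 1 or 2 (log2 0.30 to 0.35, FDR 0.0516 to 0.0672). Pgk1 has 4 near-identical annotated copies and Pgam1 has 1, none of them in the table.

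Eno1, the enolase of most tissues, lies at chr4:150236721-150248879 and had 45933, 50590.2, 40629.9 and 33943 normalised reads in libraries 1 to 4 labelled Phf23-/-, against 25989, 26935, 30116 and 29754 in libraries 1 to 4 labelled WT. It was called higher with no overlap (1.52-fold, log2 0.59 ± 0.13, FDR = 0.00916), also in each fit that left out 1 library. Of its 3 annotated copies, Eno1b was in the table with a mean of 35.8 normalised reads. Eno2, the neuronal enolase, had 268, 294, 264 and 278 in libraries 1 to 4 labelled Phf23-/-, against 231, 225, 216 and 255 in those labelled WT. Every library labelled Phf23-/- was above every library labelled WT, but Eno2 was not called (log2 0.25 ± 0.11, FDR = 0.111). Pkm, pyruvate kinase of muscle and of proliferating cells, had 37669.5, 32479, 31568 and 30399.8 in libraries 1 to 4 labelled Phf23-/-, against 24374, 27332, 29742 and 31019.8 in those labelled WT. The groups overlapped through WT 4 and Pkm was not called (log2 0.23 ± 0.11, FDR = 0.139). A gene total does not separate the splice forms of Pkm.

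Of the lactate dehydrogenases, Ldhb was called higher and Ldha was not called. Ldhb, whose subunit favours turning lactate back into pyruvate, lies at chr6:142490249-142507957 and had 6318, 6887, 5134 and 4629 normalised reads in libraries 1 to 4 labelled Phf23-/-, against 3162, 3373, 3427 and 3615 in libraries 1 to 4 labelled WT. The lowest library labelled Phf23-/- was above the highest labelled WT (1.69-fold, log2 0.74 ± 0.13, FDR = 0.00352). Ldha, whose subunit favours making lactate and which is a classical HIF target, had 12749, 12000.0, 11276 and 10073 in libraries 1 to 4 labelled Phf23-/-, against 9215, 9279, 10967 and 10705 in those labelled WT. Phf23-/- 4 lay below WT 3 and WT 4, and Ldha was not called (log2 0.20 ± 0.11, FDR = 0.185, 95% interval -0.036 to 0.43). Of the reads per kb on both genes, Ldhb took 40.8, 44.4, 38.8 and 39.01% in libraries 1 to 4 labelled Phf23-/- and 32.3, 33.6, 30.3 and 31.97% in libraries 1 to 4 labelled WT. No library of either label reached into the range of the other. The Ldhb transcript is the shortest of the 17 enzymes at 1304 bases and that of Ldha has 1815 bases, and the part of the length slope in their ratio was not tested.

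**Figure D2:**
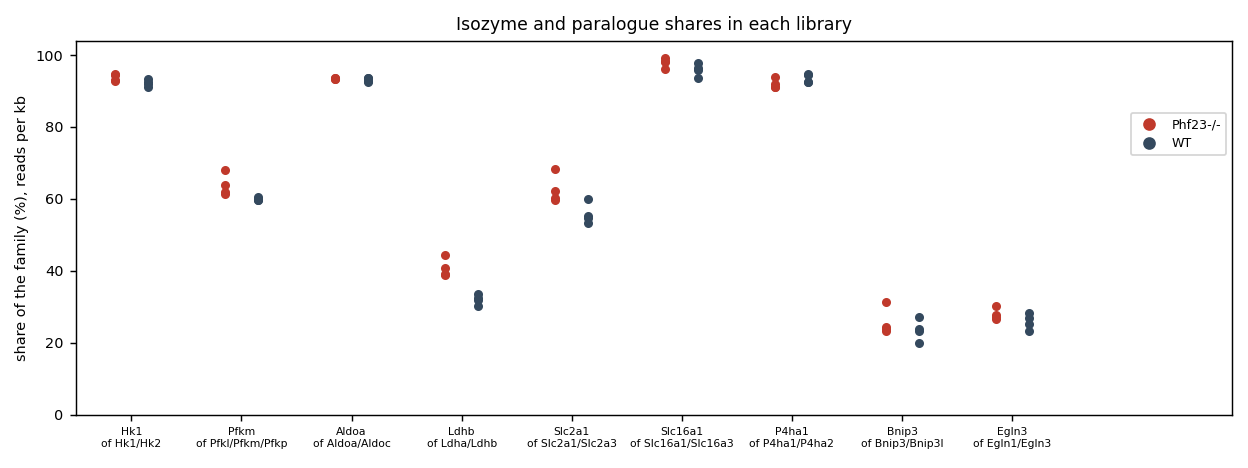
Each point is the share of 1 gene in the summed reads per kb of its family, in percent, in 1 library. Red points are libraries labelled Phf23-/-, dark points libraries labelled WT. The groups stand apart for Ldhb (38.8% to 44.4% in libraries labelled Phf23-/- against 30.3% to 33.6% in those labelled WT) and for Pfkm (61.4% to 67.9% in libraries labelled Phf23-/- against 59.6% to 60.6% in those labelled WT), and overlap for the other 7 families shown. Transcript lengths differ within families, and the part of the length slope in these shares was not tested.

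After pyruvate, the lactate carriers gave no call and the switch kinase was called lower. Slc16a1 (MCT1), which carries lactate in either direction, had 1765, 2186, 1480.3 and 1573 normalised reads in libraries 1 to 4 labelled Phf23-/-, against 1492, 1369.8, 1639 and 1508 in libraries 1 to 4 labelled WT. The groups overlapped and it was not called (log2 0.21 ± 0.12, FDR = 0.225). Slc16a3 (MCT4), the hypoxia-inducible lactate exporter, had 32.7, 20.01, 58.6 and 25.4 in libraries 1 to 4 labelled Phf23-/-, against 34.4, 91.2, 70.9 and 53.3 in those labelled WT. The groups overlapped through Phf23-/- 3 and WT 1, and it was not called (log2 -0.88 ± 0.35, FDR = 0.0768). It was called lower without Phf23-/- 3 or WT 1 (log2 -1.17 to -1.13, FDR 0.0297 to 0.0467). Slc16a3 held only 19 to 95 recovered reads in a library, and it took a mean 2.07% of the reads per kb on the 2 carriers in libraries labelled Phf23-/- and 4.09% in libraries labelled WT. Pdk1, the kinase that shuts pyruvate out of the mitochondrial oxidation route in hypoxia, had 213, 197, 301 and 287 in libraries 1 to 4 labelled Phf23-/-, against 370.0, 434, 359 and 266 in those labelled WT. Phf23-/- 3 and 4 exceeded WT 4, and Pdk1 was called lower (0.698-fold, log2 -0.52 ± 0.18, FDR = 0.0438). The call was lost without Phf23-/- 1 or 2 or WT 1, 2 or 3 (log2 -0.51 to -0.41, FDR 0.0831 to 0.137).

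**Figure D3:**
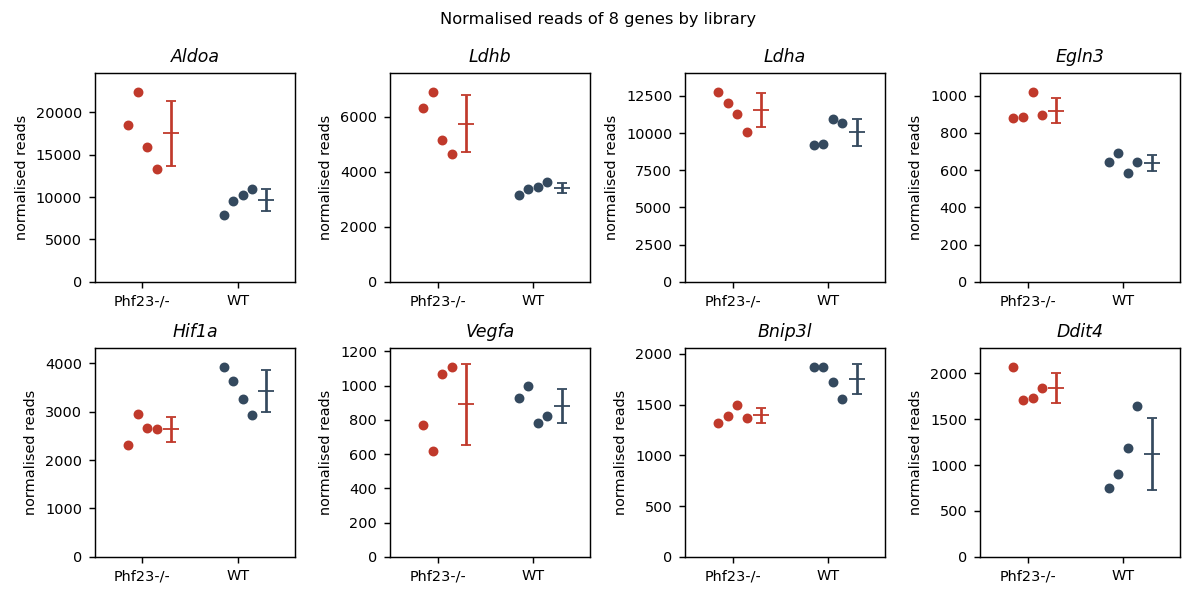
Normalised reads of 8 genes, with each library as a point and mean ± SD (n = 4) beside the points. Red is Phf23-/- and dark is WT, as labelled, and each y axis starts at 0. Aldoa, Ldhb, Egln3 and Ddit4 lie higher in libraries labelled Phf23-/- and Bnip3l lies lower, each without overlap, while Ldha, Vegfa and Hif1a overlap.

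HIF and its oxygen sensors were called in opposite directions. Hif1a, the oxygen-regulated subunit of HIF-1, lies at chr12:73901375-73947530 and had 2313, 2946, 2655 and 2632 normalised reads in libraries 1 to 4 labelled Phf23-/-, against 3921, 3640.1, 3260.5 and 2928 in libraries 1 to 4 labelled WT. Phf23-/- 2 lay just above WT 4, and Hif1a was called lower (0.767-fold, log2 -0.38 ± 0.11, FDR = 0.0267). The call was lost without Phf23-/- 1 or 3 or WT 1 or 2 (log2 -0.38 to -0.31, FDR 0.0560 to 0.0916). HIF-1α is controlled mainly by the stability of the protein, which RNA reads do not measure. Egln1 (PHD2), the main HIF prolyl hydroxylase, had 3198, 3287, 3167 and 3139.6 in libraries 1 to 4 labelled Phf23-/-, against 2367, 2357, 2624 and 2580.1 in those labelled WT. It was called higher without overlap (1.29-fold, log2 0.37 ± 0.086, FDR = 0.0112).

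Egln3 (PHD3), a hydroxylase gene that is itself a HIF target, lies at chr12:54178981-54203860. It had 878, 883, 1018 and 895 normalised reads in libraries 1 to 4 labelled Phf23-/-, against 642, 690.2, 584 and 642 in libraries 1 to 4 labelled WT. The ranges stood apart, with Phf23-/- 3 the highest, and Egln3 was called higher (1.44-fold, log2 0.52 ± 0.10, FDR = 0.00617). Egln1 and Egln3 were called in each of the 8 fits that left out 1 library. Egln3 took 27.04, 26.6, 30.3 and 27.8% of the reads per kb on the pair in libraries 1 to 4 labelled Phf23-/- and 26.8, 28.3, 23.1 and 25.2% in those labelled WT, and these shares overlapped.

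The 10 hypoxia targets outside metabolism gave 2 higher calls, 1 lower call and 7 genes not called, a share near the 29.6% of all genes called. Ddit4 (REDD1), an inhibitor of mTORC1 that stress and hypoxia induce, had 2068, 1705, 1734 and 1841 normalised reads in libraries 1 to 4 labelled Phf23-/-, against 753, 900.4, 1181 and 1639 in libraries 1 to 4 labelled WT. The libraries labelled WT spread widely, with WT 4 close to the libraries labelled Phf23-/-, but the groups did not overlap (1.64-fold, log2 0.77 ± 0.19, FDR = 0.0134). The call was lost without Phf23-/- 1 (log2 0.72, FDR 0.0519). Bnip3l (NIX), a mitophagy receptor, had 1324, 1385, 1501 and 1373 in libraries 1 to 4 labelled Phf23-/-, against 1869.7, 1867, 1724 and 1553 in those labelled WT. It was called lower without overlap (0.796-fold, log2 -0.33 ± 0.097, FDR = 0.0258), but not without Phf23-/- 1 or WT 1, 2 or 3 (log2 -0.33 to -0.29, FDR 0.0523 to 0.0873).

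Car9, a surface carbonic anhydrase that hypoxia strongly induces, was near the detection limit. It had 10, 6, 11 and 6 recovered reads in libraries 1 to 4 labelled Phf23-/-, against 0, 7, 0 and 3 in libraries 1 to 4 labelled WT. WT 2 lay within the libraries labelled Phf23-/-, so that the groups overlapped. Car9 was called higher (log2 1.91 ± 0.66, FDR = 0.0463), but the call was lost without Phf23-/- 1, 2 or 3 or WT 1 or 3 (FDR 0.0748 to 0.127). It was also lost in edgeR (FDR = 0.123) and in DESeq2 (adjusted p = 0.0973) on the recovered reads.

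Vegfa, the growth factor of blood vessels, was not called over all libraries. It had 772, 615, 1066 and 1108 normalised reads in libraries 1 to 4 labelled Phf23-/-, against 928, 997, 779.7 and 821 in libraries 1 to 4 labelled WT. Libraries 1 and 2 labelled Phf23-/- were low and libraries 3 and 4 labelled Phf23-/- were the highest of all 8 (log2 -0.019 ± 0.17, FDR = 0.946, 95% interval -0.39 to 0.35). With replicates 3 and 4 alone, Vegfa was called higher (log2 0.44, FDR = 0.00568). That fit had 2 libraries per label, and its FDR rests on a spread pooled over genes. Adm, the vasodilator adrenomedullin, had 423, 349, 370.3 and 371 in libraries 1 to 4 labelled Phf23-/-, against 334, 346, 339 and 272 in those labelled WT. Every library labelled Phf23-/- was above every library labelled WT, the closest at 349 against 346, but Adm was not called (log2 0.23 ± 0.12, FDR = 0.165).

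The remaining 5 targets overlapped between groups and were not called. Bnip3, a mitophagy receptor related to Bnip3l, averaged 262 ± 54.7 normalised reads in libraries labelled Phf23-/- and 295 ± 69.8 in libraries labelled WT (log2 -0.16 ± 0.19, FDR = 0.552). P4ha1, a collagen prolyl hydroxylase subunit, averaged 1085 ± 55.5 normalised reads in libraries labelled Phf23-/- and 1102 ± 149 in libraries labelled WT (log2 -0.015 ± 0.11, FDR = 0.935). P4ha2, its paralogue, averaged 53.2 ± 10.3 normalised reads in libraries labelled Phf23-/- and 42.1 ± 5.76 in libraries labelled WT (log2 0.32 ± 0.22, FDR = 0.280). Ndrg1, a gene named for its regulation by Myc and induced by hypoxia, averaged 57.7 ± 4.02 normalised reads in libraries labelled Phf23-/- and 72.5 ± 22.2 in libraries labelled WT (log2 -0.29 ± 0.21, FDR = 0.327). Ankrd37, a small ankyrin-repeat gene that HIF-1 induces, averaged 20.8 ± 9.92 normalised reads in libraries labelled Phf23-/- and 19.5 ± 2.47 in libraries labelled WT (log2 -0.0085 ± 0.34, FDR = 0.987). Ankrd37 held only 11 to 37 recovered reads in a library and shares 349 exon bases with Lrp2bp and 57 with Ufsp2 on the opposite strand. Among these 5 genes the widest 95% interval was that of Ankrd37, -0.74 to 0.72 on the log2 scale.

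Set side by side, 11 of 17 enzymes and 2 of 10 non-metabolic targets were called higher, with none and 1 called lower. Of all genes, 14.8% were called higher and 14.8% lower, so that the targets lay near the share of all genes. The median log2 fold change was 0.36 over the enzymes and -0.012 over the non-metabolic targets. In 12 of 17 enzymes all libraries labelled Phf23-/- were above all libraries labelled WT, as in 2 of the 10 targets and 13.6% of all genes. None of the enzymes and 1 target lay wholly below, as did 14.2% of all genes. The difference between the lists was not tested.

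Summed over the 17 enzymes, the share of normalised reads was 1.18, 1.20, 1.08 and 0.985% in libraries 1 to 4 labelled Phf23-/-, against 0.730, 0.816, 0.884 and 0.906% in libraries 1 to 4 labelled WT. The groups did not overlap, and their means were 1.11 ± 0.0987% in libraries labelled Phf23-/- and 0.834 ± 0.0790% in those labelled WT (SD, n = 4 each). The 10 non-metabolic targets took 0.0324, 0.0289, 0.0346 and 0.0347% in libraries 1 to 4 labelled Phf23-/-. In libraries 1 to 4 labelled WT they took 0.0301, 0.0341, 0.0308 and 0.0325%, and the groups overlapped. This sum joins genes called in opposite directions, among them Ddit4 (higher) and Bnip3l (lower), so that it does not describe each target.

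The enzyme share followed the length slope: the 8 libraries had the same order by enzyme share, highest first, as by length slope, lowest first. Phf23-/- 2 was the highest of all 8 libraries for 9 of 17 enzymes and Phf23-/- 1 for 6. WT 1, with the steepest positive slope, was the lowest WT library for 15 of 17. Enzyme transcripts had a median length of 2432 bases (1304 to 5513) and targets one of 2143 bases (927 to 4043), against 3007 over all genes. These medians count each gene once, while the shares are sums of reads. The enzymes with the most reads were Eno1 (2027 bases), Gapdh (1420 bases) and Pkm (2432 bases). Among the targets, Ddit4 (1755 bases), Bnip3l (3238 bases) and P4ha1 (4043 bases) had the most. The part of transcript length in either share was not tested.

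**Figure D4:**
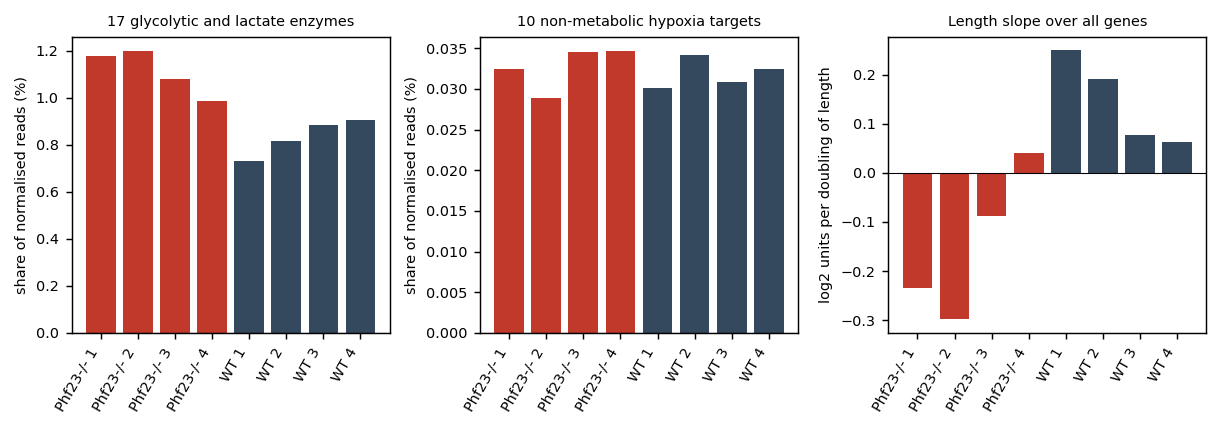
Bars are single libraries, red for Phf23-/- and dark for WT, as labelled. The left panel gives the share of normalised reads on the 17 enzymes (%), the middle panel that on the 10 non-metabolic targets (%), and the right panel the length slope over all genes (log2 units per doubling of length). Enzyme shares run from 0.985% to 1.20% in libraries labelled Phf23-/- against 0.730% to 0.906% in those labelled WT and mirror the slopes. Summed target shares lie between 0.0289% and 0.0347% and overlap between groups.

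Subtracting from each library a fitted trend of its values over transcript length and GC content left 8 of 17 enzymes called higher and none lower, with a median log2 fold change of 0.20. In that fit 10.1% of all genes were called higher and 7.14% lower, 17.3% in all. Aldoa (log2 0.44, FDR = 0.00196), Aldoc (log2 0.70, FDR = 0.00974), Tpi1 (log2 0.44, FDR = 0.00164), Gpi1 (log2 0.40, FDR = 0.00128), Ldhb (log2 0.37, FDR = 0.00136), Hk1 (log2 0.31, FDR = 0.0137), Eno1 (log2 0.27, FDR = 0.0279) and Pgk1 (log2 0.22, FDR = 0.0299) remained called. The calls ended for Gapdh (log2 0.092, FDR = 0.428), Pgam1 (log2 0.099, FDR = 0.426) and Pfkm (log2 0.20, FDR = 0.0619). Of the 8 still called, Aldoa, Tpi1, Pgk1, Eno1 and Ldhb shrank by over 1.5 times on the log2 scale. Gapdh, Pgam1 and Pfkm, whose calls ended, shrank by over 1.5 times too.

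Outside the enzymes, Egln1 (log2 0.31, FDR = 0.00581) and Egln3 (log2 0.44, FDR = 0.00273) remained called after the subtraction, and Slc16a1 became called higher (log2 0.49, FDR = 0.0447). The lower calls of Pdk1 (log2 -0.23, FDR = 0.228), Hif1a (log2 -0.055, FDR = 0.649) and Bnip3l (log2 -0.17, FDR = 0.0899) ended. So did the higher calls of Ddit4 (log2 0.39, FDR = 0.0624) and Car9 (log2 1.67, FDR = 0.0875), so that none of the 10 targets was called.

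**Figure D5:**
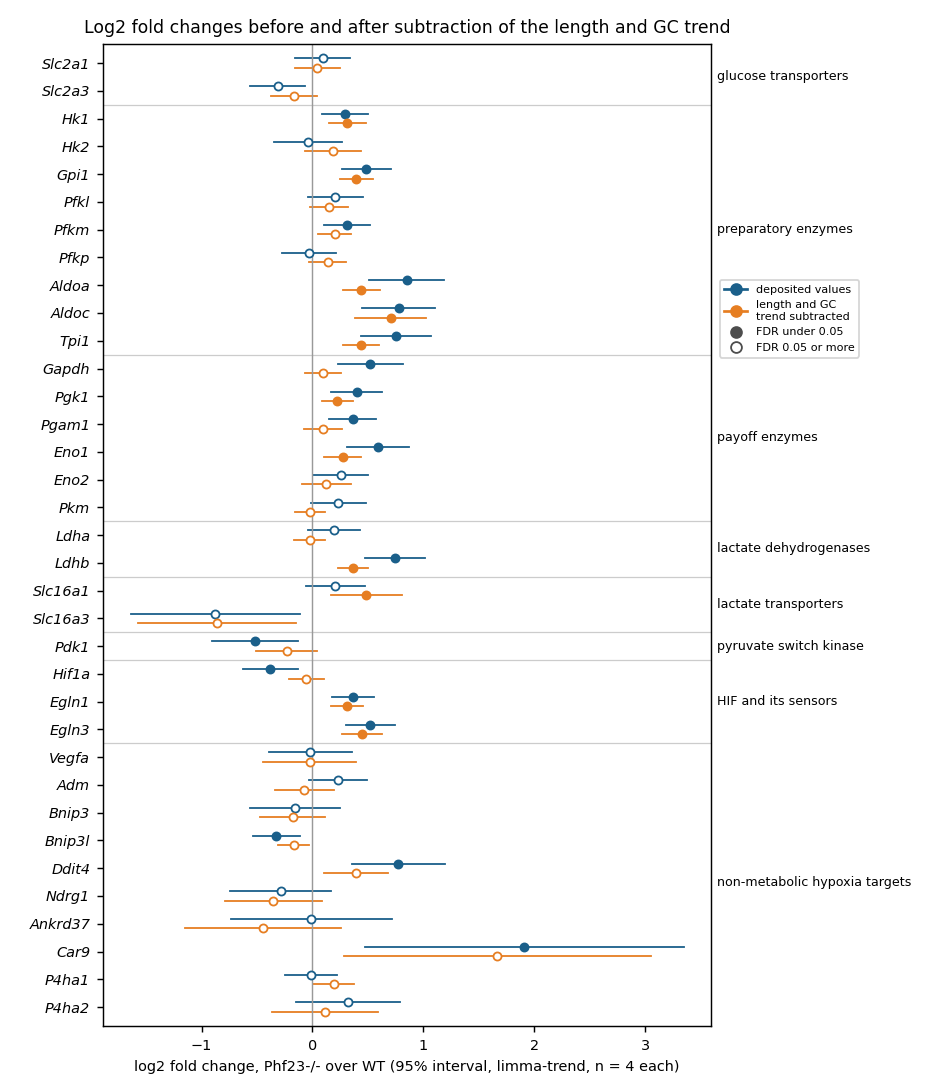
Each row is 1 gene, with the log2 fold change of libraries labelled Phf23-/- over WT and its 95% interval from limma-trend (n = 4 each). Blue is the fit on deposited values and orange the fit after the length and GC trend was subtracted, and filled symbols have an FDR under 0.05. Most enzymes lie right of 0 in both fits, with Gapdh near 0.092 and Hif1a near -0.055 after subtraction.

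With replicates 3 and 4 alone, 5 of 17 enzymes were called higher (Gpi1, Aldoa, Aldoc, Tpi1 and Ldhb) and none lower, against 4.61% and 4.54% of all genes (9.15% in all). None of the 6 payoff enzymes was among them. Egln3 (log2 0.64, FDR = 2.61e-05), Ddit4 (log2 0.36, FDR = 0.0191) and Vegfa were called higher too. That fit had only 2 libraries per label, and its FDRs rest on a spread pooled over genes, not on each gene's own. They cannot be set against the FDRs of the full fit. With each library's length slope as a model term, 0.644% of all genes were called higher and 0.431% lower (1.07% in all), and Egln3 was the only gene of the 35 called (log2 0.61, FDR = 0.0387). Leaving out 1 library at a time gave 6 to 11 enzymes and 0 to 2 targets called higher. The fewest enzymes, 6, were called without WT 1 or WT 2, and 7 were called without Phf23-/- 1.

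Levels between genes can be compared per length. Gapdh was the most abundant of the 35 with 25149 normalised reads per kb in libraries labelled Phf23-/- and 17363 in those labelled WT, followed by Eno1 with 21102 normalised reads per kb in libraries labelled Phf23-/- and 13911 in those labelled WT. Pkm had 13581 normalised reads per kb in libraries labelled Phf23-/- and 11561 in those labelled WT, and Aldoa had 11324 normalised reads per kb in libraries labelled Phf23-/- and 6221 in those labelled WT. The sugar-phosphorylating enzymes stood lower: Hk1 had 770.3 normalised reads per kb in libraries labelled Phf23-/- and 629 in those labelled WT, and Pfkm had 1136 normalised reads per kb in libraries labelled Phf23-/- and 914 in those labelled WT. The lowest of the 35 were Car9 with 3.96 normalised reads per kb in libraries labelled Phf23-/- and 1.19 in those labelled WT and Slc16a3 with 7.89 normalised reads per kb in libraries labelled Phf23-/- and 14.4 in those labelled WT. Within their families, Hk1, Pfkm, Aldoa, Eno1 and Ldha held the most reads per kb under either label.

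The other genes of these routes were read against the 14.8% of all genes called higher and the 14.8% called lower. Of 9 other transporters and hexokinases measured, 1 was called higher and 1 lower. Slc2a8 (GLUT8), an intracellular hexose transporter, averaged 523 ± 74.6 normalised reads in libraries labelled Phf23-/- and 318 ± 35.6 in libraries labelled WT (log2 0.71 ± 0.13, FDR = 0.00514). Slc2a13, a proton-coupled inositol transporter, averaged 216 ± 36.8 normalised reads in libraries labelled Phf23-/- and 296 ± 33.5 in libraries labelled WT (log2 -0.46 ± 0.15, FDR = 0.0342), a call that was lost without Phf23-/- 1 or 3 or WT 1, 2 or 3 (log2 -0.49 to -0.35, FDR 0.0635 to 0.109). Of 7 regulators of the fructose bisphosphate step, only Pfkfb2 was called, lower (log2 -0.52 ± 0.18, FDR = 0.0461), and not without Phf23-/- 1, 2 or 3 or WT 1, 2 or 3 (log2 -0.54 to -0.39, FDR 0.0754 to 0.136).

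Of 8 other genes of the lower route, 1 was called higher and 1 lower. Pgam5, a mitochondrial phosphatase named after the mutases, was higher (log2 0.32 ± 0.11, FDR = 0.0445), but not without Phf23-/- 1, 2 or 3 or WT 1 or 2 (log2 0.27 to 0.36, FDR 0.0589 to 0.140). Gapdhs, the sperm form of Gapdh, averaged 8.73 ± 4.99 normalised reads in libraries labelled Phf23-/- and 20.6 ± 6.13 in libraries labelled WT and was lower (log2 -1.27 ± 0.43, FDR = 0.0420), but not without Phf23-/- 1, 2 or 3 or WT 1, 2, 3 or 4 (log2 -1.48 to -0.91, FDR 0.0512 to 0.102).

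Genes that bring pyruvate into the mitochondrion gave 5 higher and 2 lower calls among 12, beside 14.8% of all genes in each direction. Both subunits of the mitochondrial pyruvate carrier were called higher in all 8 fits that left out 1 library. Mpc2 had 1215, 1484, 934 and 909.9 normalised reads in libraries 1 to 4 labelled Phf23-/-, against 549, 585, 663 and 726 in libraries 1 to 4 labelled WT (log2 0.83 ± 0.16, FDR = 0.00577). Mpc1 averaged 1146 ± 112 normalised reads in libraries labelled Phf23-/- and 806 ± 55.8 in libraries labelled WT (log2 0.50 ± 0.10, FDR = 0.00744). Neither pair of groups overlapped, and after the length and GC trend was subtracted Mpc2 remained called (log2 0.37, FDR = 0.00648) and Mpc1 did not (log2 0.24, FDR = 0.0617). Pdk4, a kinase that inhibits pyruvate dehydrogenase, was called lower (log2 -0.56 ± 0.19, FDR = 0.0424), but not without Phf23-/- 1, 2 or 3 or WT 1, 2 or 4 (log2 -0.60 to -0.49, FDR 0.0592 to 0.121). Pdp1, the phosphatase that activates pyruvate dehydrogenase, was also called lower (log2 -0.44 ± 0.14, FDR = 0.0332), but not without Phf23-/- 1, 2 or 3 or WT 2, 3 or 4 (log2 -0.48 to -0.35, FDR 0.0590 to 0.0786).

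The other genes of lactate transport were called in both directions. Of 4 genes measured, 1 was called higher and 2 lower, each in all 8 fits that left out 1 library. Bsg (basigin), the chaperone that brings MCT1 and MCT4 to the membrane, had 8049.9, 8654, 6615 and 6209 normalised reads in libraries 1 to 4 labelled Phf23-/-, against 3957, 4565, 5209 and 5611 in libraries 1 to 4 labelled WT. Bsg was higher without overlap (1.53-fold, log2 0.61 ± 0.14, FDR = 0.00957), and the call ended after the trend was subtracted (log2 0.18, FDR = 0.0560). Emb (embigin), the chaperone that MCT2 prefers, had 67.4, 107, 78.2 and 98.8 in libraries 1 to 4 labelled Phf23-/-, against 173, 213, 145 and 141 in those labelled WT. It was lower without overlap (0.523-fold, log2 -0.93 ± 0.19, FDR = 0.00720) and remained so after the subtraction (log2 -0.83, FDR = 0.00434). Slc16a7 (MCT2) itself averaged 67.9 ± 11.5 normalised reads in libraries labelled Phf23-/- and 134 ± 27.7 in libraries labelled WT (log2 -0.96 ± 0.20, FDR = 0.00718), and its call ended after the subtraction (log2 -0.33, FDR = 0.202).

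Of 19 other genes of the HIF machinery, 3 were called higher and 3 lower, a share near the 29.6% of all genes called. Elob, a subunit of the ligase that destroys HIF-1α, averaged 3828 ± 856 normalised reads in libraries labelled Phf23-/- and 2153 ± 423 in libraries labelled WT (log2 0.82 ± 0.17, FDR = 0.00748). Egln2 (PHD1), the third prolyl hydroxylase, averaged 1370.2 ± 231 normalised reads in libraries labelled Phf23-/- and 867 ± 174 in libraries labelled WT (log2 0.67 ± 0.15, FDR = 0.0104), so that all 3 hydroxylase genes were called higher. Arnt, the partner of HIF-1α on DNA, averaged 737 ± 109.6 normalised reads in libraries labelled Phf23-/- and 974 ± 92.6 in libraries labelled WT (log2 -0.41 ± 0.12, FDR = 0.0278) and was not called without Phf23-/- 1, 2 or 3 or WT 1 or 2 (log2 -0.42 to -0.32, FDR 0.0535 to 0.0879). Ep300, a HIF coactivator, was called lower (log2 -0.51 ± 0.16, FDR = 0.0300), but not without Phf23-/- 1 or 2 or WT 1 or 2 (log2 -0.48 to -0.36, FDR 0.0625 to 0.0949). After the trend was subtracted, none of these 4 remained called, with Elob at log2 0.061, FDR = 0.518 and Egln2 at log2 0.24, FDR = 0.0627. In that fit 2 other genes of the 19 were called higher and none lower: Eloc and Crebbp, named here after their values were seen.

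Of 57 other hypoxia targets, 12 were called higher and 6 lower, a share near the 29.6% of all genes called. After the trend was subtracted 12 were called higher and 4 lower, beside 10.1% and 7.14% of all genes. The median log2 fold change of these 57 was 0.11. Trf, transferrin, had 3292, 3398, 3335 and 3025 normalised reads in libraries 1 to 4 labelled Phf23-/-, against 2078, 2036, 2250.2 and 2179 in libraries 1 to 4 labelled WT. Trf was higher without overlap (1.53-fold, log2 0.61 ± 0.088, FDR = 0.00171). Stc2, the secreted glycoprotein stanniocalcin, averaged 158 ± 12.7 normalised reads in libraries labelled Phf23-/- and 98.05 ± 10.5 in libraries labelled WT (log2 0.69 ± 0.14, FDR = 0.00781). Flt1, a VEGF receptor, averaged 8.31 ± 5.27 normalised reads in libraries labelled Phf23-/- and 30.6 ± 2.40 in libraries labelled WT (log2 -1.96 ± 0.41, FDR = 0.00769), and Rora, a nuclear receptor, averaged 394 ± 76.4 normalised reads in libraries labelled Phf23-/- and 613 ± 96.4 in libraries labelled WT (log2 -0.64 ± 0.15, FDR = 0.0119). These 4 were called in all 8 fits that left out 1 library, and the call of Rora ended after the trend was subtracted (log2 -0.033, FDR = 0.830).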

How the data were processed

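Bulk polyA RNA of 4 neurosphere libraries labelled Phf23-/- and 4 labelled WT was sequenced. The submitters' processing notes name FastQC 0.12.1, fastp 0.23.4, STAR 2.7.1a, DESeq2 1.38.3 and mm10. The read counter, annotation, strand setting and gene filter were not given in the sources used here. Values were deposited by the authors as a signal, reads divided by a size factor, since all values (100%) were whole multiples of 1 step per library within 1e-04 reads. Of 15602 rows, 64 repeats were dropped, leaving 15538 genes, of which 15535 matched a symbol in GENCODE M21 (GRCm38, the assembly that mm10 denotes). The lowest gene total was 11 reads, and 0 columns lay outside the series.

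The design foresaw edgeR for raw counts and limma-trend for normalised values, which these were. limma-trend (limma 3.58.1, R 4.3.3, robust) was fitted with genotype alone on log2(value + 1). Its two-sided p-values were adjusted by Benjamini-Hochberg across the whole table. Fold changes on that scale understate changes of genes with few reads. Alternatives were edgeR 4.0.16 with TMM and DESeq2 1.42.0 on recovered reads, library size and TMM scaling, 0.1 as pseudocount, genes with a mean of 10 or more, a replicate block, a loess trend with length and GC content (span 0.3) subtracted per library, the length slope (13265 genes) as a covariate, replicates 3 and 4 alone, and leaving out each library. The steps were tested on simulated data that held no length or GC trend. That test cannot show how the trend subtraction or the slope covariate acts where slopes differ between groups. Length was that of the longest protein-coding CCDS transcript in the basic set, else the longest, a rule chosen after the data were seen because an earlier one gave Vegfa a coding-only transcript. Copies were sought with blastn 2.17.0 (95% identity over 300 bases). Gpi1, Tpi1, Pkm, Ldha, Ldhb, Bnip3 and Bnip3l also have annotated copies, none of them in the expression table. Exons of Gpi1 (741 bases), Pkm (767), Bnip3 (504), Ndrg1 (419), Pfkm (341) and Hif1a (330) overlap an annotated gene outside the expression table. Reads of these members may be shared with it, and shorter overlaps are not listed.

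The members, lists and tests were chosen with earlier results of these data known. All 35 members are named, with up to 2 higher and 2 lower genes of lowest FDR from each other list. RefSeq promoter windows (GRCm38.p6) were matched by symbol. Slc2a3, Bnip3l and Ndrg1 had none.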

Additional observations from a re-analysis of the deposited data

Results flagged for a closer look

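In 126 groups of 4 libraries, 5 had 1 library set apart from the other 3, where chance gives about 1 in 20. The measure is the gap to the nearest library divided by the range of the group, set against Dixon's critical value. Egln3, the HIF prolyl hydroxylase, was set apart in libraries labelled Phf23-/- by library 3, with 1018 normalised reads against 878 to 895 in the other 3 (0.877). Pgam1, phosphoglycerate mutase, was set apart in libraries labelled Phf23-/- by library 2, with 7065 against 7827 to 7944 (0.867). That library was the highest of all 8 for 9 other enzymes. Pfkp was set apart in libraries labelled WT by library 3, with 1242 against 1400 to 1416 (0.906). Ndrg1 was set apart in libraries labelled WT by library 2, with 106 against 58.9 to 64.9 (0.871). Adm was set apart in libraries labelled WT by library 4, with 272 against 334 to 346 (0.838), so that its lack of overlap between groups did not rest on that library.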

How the results depend on the processing

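Over all genes, 4593 were called, against 2685 after the length and GC trend was subtracted, 1422 with replicates 3 and 4 alone, 167 with the length slope as a covariate and 333 with a replicate block. Leaving out 1 library gave 1884 to 5861, with 1884 without Phf23-/- 1, 2189 without WT 1 and 2106 without WT 2. Among the 35 genes, 15 were called higher, against 8 with replicates 3 and 4 alone, 1 with the length slope as a covariate (Egln3), and 9 to 15 when 1 library was left out. Lower calls numbered 3, against 0 with the trend subtracted, 0 with the covariate and 0 with replicates 3 and 4 alone. They numbered 0 to 3 when 1 library was left out. These counts include genes not called over all libraries: Vegfa, higher with replicates 3 and 4, and Slc16a3, lower without WT 1 or Phf23-/- 3. Without Phf23-/- 1 or WT 1, 9 were called higher. Without Phf23-/- 1 or WT 2, 0 were called lower, and without WT 1 or WT 3, 1 was. The gene called lower without WT 1 was Slc16a3, and Pdk1, Hif1a and Bnip3l all lost their calls there. edgeR, DESeq2, TMM scaling, the pseudocount and the minimum mean kept 17 or 18 of the 18 calls. Car9 lost its call in edgeR, in DESeq2 and with the smaller pseudocount, and lay below the minimum mean. Scaling by library size shifted the median of all genes by -0.060 and kept 14 of the 18, losing Hk1, Pfkm, Pgam1 and Car9. The labels number replicates 1 to 4 in both groups and do not say whether equal numbers mark a pair. Deviations of same-numbered libraries from their group means correlated at -0.33, -0.13, -0.19 and -0.28 over 13271 genes. The length slopes of libraries 1 and 2 ran in opposite directions in the groups, so that these correlations cannot show whether the libraries were paired. With a replicate block 1 of the 35 genes was called higher (Ldhb) and 0 lower, and the cause was not tested.

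Directions turned mostly where no call was made in either fit. With the slope as a covariate these were Slc2a1 (-0.031), Hk2 (0.16), Pfkp (0.20), Pkm (-0.012), Ldha (-0.093), Slc16a1 (-0.13), Vegfa (0.63), P4ha1 (0.11) and the called gene Pdk1 (0.028), all as log2 fold changes. With the trend subtracted they were Hk2 (0.19), Pfkp (0.14), Pkm (-0.023), Ldha (-0.025), Adm (-0.073) and P4ha1 (0.19). With replicates 3 and 4 alone they were Hk2 (0.13), Pfkp (0.086), Ldha (-0.024), Slc16a1 (-0.043), Bnip3 (0.00036), Ankrd37 (0.011), P4ha1 (0.14) and Vegfa (0.44), which was called there. In edgeR and DESeq2, Vegfa was at 0.015 and 0.012 and Ankrd37 at 0.11 and 0.10. When 1 library was left out, Hk2 ran from -0.11 to 0.056, Pfkp from -0.10 to 0.050, Vegfa from -0.14 to 0.14, Ankrd37 from -0.28 to 0.25 and P4ha1 from -0.062 to 0.076. Depth limits Car9, Ankrd37, P4ha2 and Slc16a3, which had under 100 normalised reads in each library.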

Other observations

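Branches that leave glycolysis were also measured. Of 8 pentose phosphate genes, 2 were called higher and none lower, beside 14.8% of all genes in each direction. Pgls, phosphogluconolactonase, averaged 3901 ± 975 normalised reads in libraries labelled Phf23-/- and 2263 ± 497 in libraries labelled WT (log2 0.77 ± 0.19, FDR = 0.0130), and the call was lost without Phf23-/- 1 (log2 0.72, FDR 0.0503). Taldo1, transaldolase, averaged 3623 ± 626 normalised reads in libraries labelled Phf23-/- and 2568 ± 316 in libraries labelled WT (log2 0.49 ± 0.13, FDR = 0.0184), and its call was lost without Phf23-/- 1 or WT 1 or 2 (log2 0.43 to 0.44, FDR 0.0595 to 0.0658). Neither was called after the length and GC trend was subtracted (Pgls log2 -0.018, FDR = 0.925, Taldo1 log2 0.080, FDR = 0.407), and none of the 8 genes was.

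Of 9 glycogen genes measured, 3 were called higher and 1 lower, beside the same share of all genes. Pygm, the muscle-type glycogen phosphorylase, had 292, 297, 262 and 317 normalised reads in libraries 1 to 4 labelled Phf23-/-, against 470.1, 494, 465 and 569 in libraries 1 to 4 labelled WT. The groups did not overlap (0.585-fold, log2 -0.77 ± 0.12, FDR = 0.00216, and log2 -0.89, FDR = 2.69e-05 after the subtraction). Pygb, the brain-type phosphorylase, averaged 2659 ± 201 normalised reads in libraries labelled Phf23-/- and 2101 ± 137 in libraries labelled WT (log2 0.34 ± 0.095, FDR = 0.0202), but was not called without Phf23-/- 1 or WT 1, 2 or 3 (log2 0.31 to 0.34, FDR 0.0506 to 0.0656). Gys1, glycogen synthase, averaged 1517 ± 64.7 normalised reads in libraries labelled Phf23-/- and 1226 ± 91.4 in libraries labelled WT (log2 0.31 ± 0.094, FDR = 0.0279), but was not called without Phf23-/- 1 or 3 or WT 1, 2 or 3 (log2 0.28 to 0.34, FDR 0.0544 to 0.0912).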
